A study of Mus musculus with 18 samples.

Results

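The neuropeptide genes Sst, Npy, Vip, Cck, Penk, Pdyn, Tac1, Crh, Avp and Oxt were followed in RNAseq of mouse brain 24 h after lipopolysaccharide (LPS) or phosphate-buffered saline (PBS). They were proposed with earlier results of these data known, were taken from the deposited matrix by gene symbol with no threshold on a value, and make up 10 of the 36172 genes listed. All 10 passed the filter on low counts, which left 14803 genes for testing.

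Neuropeptide genes encode large precursors that neurons pack into dense-core granules, cut with convertases such as Pcsk1 and Pcsk2, and release to act on G protein-coupled receptors. Sst, Npy, Vip, Cck and Crh mark inhibitory interneurons of the cortex and hippocampus, and Cck is also made by many excitatory neurons. Penk, Pdyn and Tac1 are the precursor genes of the projection neurons of the striatum. Avp and Oxt are made mainly by magnocellular neurons of the hypothalamus.

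Samples came from Cx3cr1-Cre/Ert2+; NuTRAP+ mice, which received tamoxifen at about 3 months of age and, 3 to 4 weeks later, 5 mg/kg LPS or PBS by intraperitoneal injection. Every group carried both alleles and had tamoxifen. The recombinase is driven by Cx3cr1, which in brain is expressed mainly by microglia, and it switches on a green fluorescent tag on ribosomes. Translating ribosome affinity purification (TRAP) pulled down tagged ribosomes from the homogenate of a half-brain to give the positive fraction, and an unpurified part of the same homogenate was the input. The input fraction had 4 PBS and 4 LPS animals (Input PBS, Input LPS), and the positive fraction 4 PBS and 5 LPS animals (Positive PBS, Positive LPS). Both fractions of an animal came from the same homogenate, and animals are named by their label numbers. PBS animals 272 and 273 and LPS animal 267 were male, and the others were female.

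The 17 libraries used held from 22968939 to 35123345 estimated counts. The input library of animal 271 held only 1252 and was left out. In PBS animals all 14 microglia markers were higher in the positive fraction, at a median log2 difference of 4.32 against 0.00 over all genes tested. Their summed level lay between 14667 and 19408 normalised counts in Input PBS and between 281210 and 331200 in Positive PBS. The 95 neuronal genes of a list that the study had drawn from earlier cell sorting, members left out, summed to between 684552 and 757779 in Positive PBS, so neuronal transcripts were still abundant there. Normalised counts are estimated counts divided by a median-of-ratios size factor.

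Levels were compared between genes per kilobase of exon. In Input PBS the mean normalised count per kilobase was highest for Sst (5219), followed by Penk (4429), Cck (3737) and Npy (2209). Tac1 (907), Avp (703), Vip (409), Oxt (370) and Crh (141) were lower. Without the input library of animal 272, a check added after the values were seen, Avp was at 291 and Oxt at 141.5, so that Avp stood below Vip (418) and Oxt near Crh (133). Sst (4760), Penk (4026), Cck (3639) and Npy (2154) remained the first 4 in the same order. Pdyn was left out of this order because its gene model in the matrix, chr2:129688001-129689868 on the minus strand, covers only part of the gene in the GENCODE annotation, which extends from 129686565 to 129699833. Neighbours in the order were not tested against each other.

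**Figure D1:**
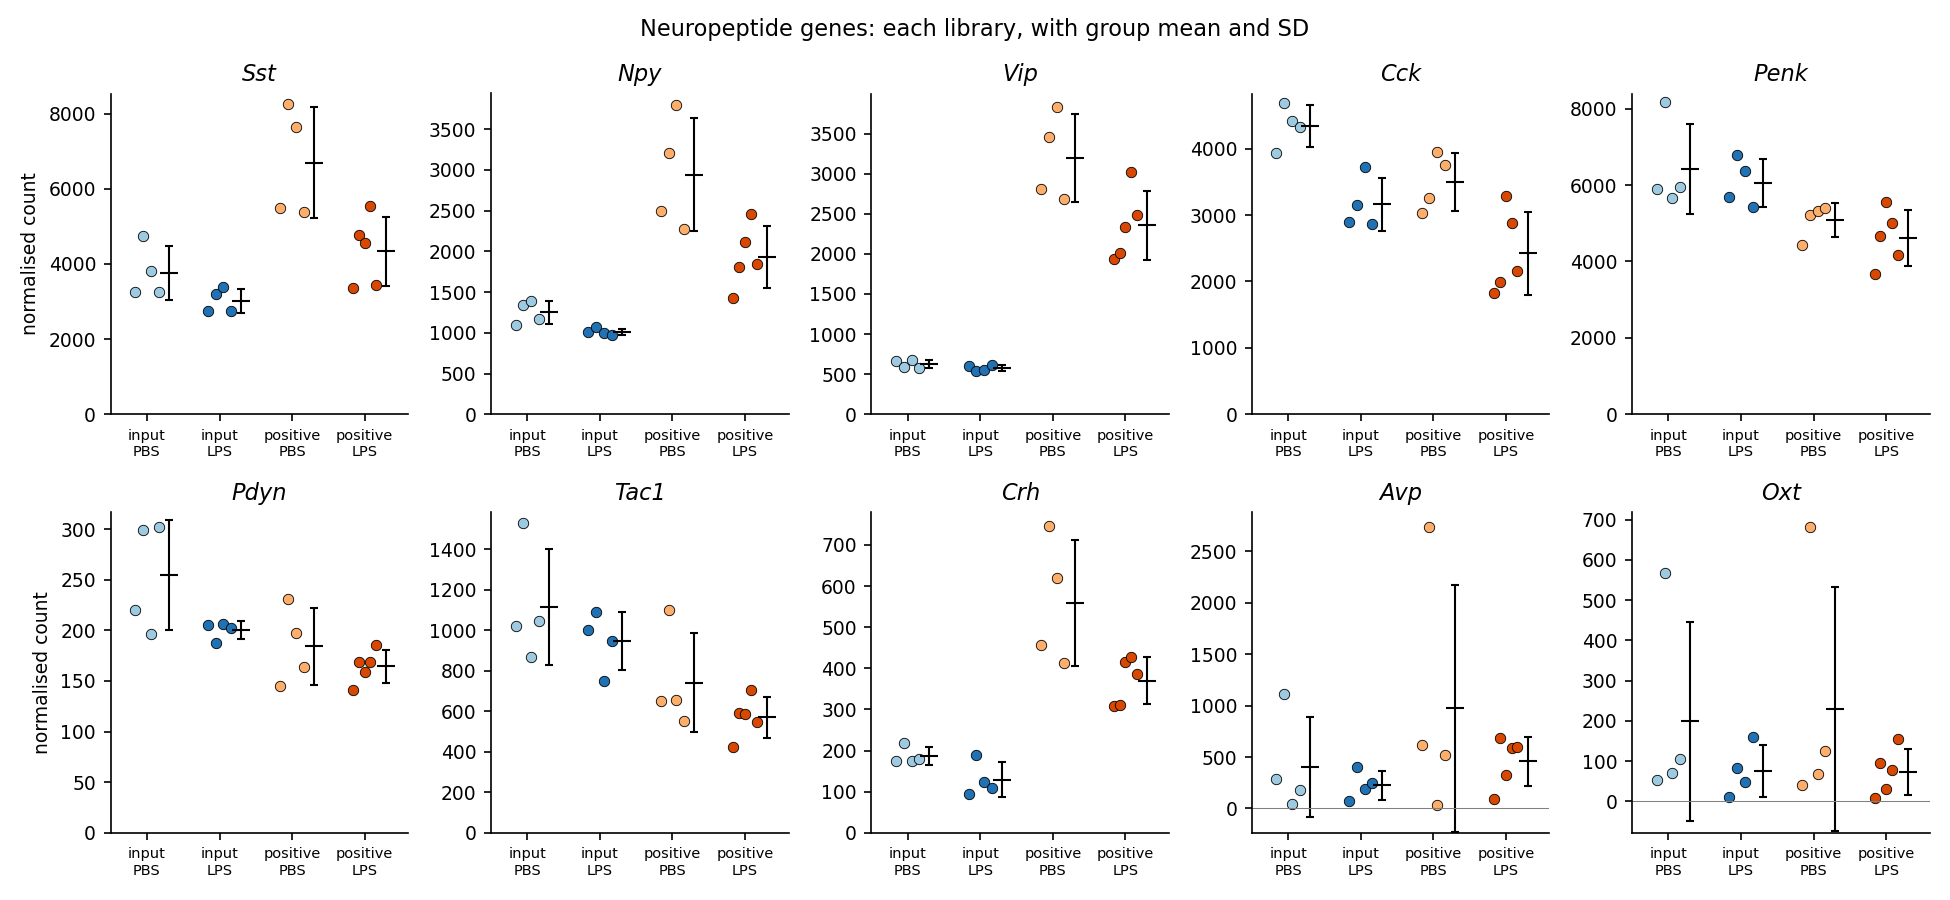
Normalised counts of the 10 neuropeptide genes, 1 panel per gene, with 1 point per library in each of the 4 groups and the group mean and SD beside the points. Vip, Npy and Crh sat higher in the positive than in the input libraries, and Avp and Oxt were spread widely by animal 272.

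The first question was how the neuropeptide transcripts were divided between the positive fraction and the input. In PBS animals Vip, Crh, Npy and Sst were higher in the positive fraction, by 5.11-, 3-, 2.35- and 1.78-fold, while Tac1, Pdyn and Penk were lower. Thus 4 of 10 members were higher, against 21.0% of all genes tested, and 3 were lower, against 18.8%. In LPS animals the same 4 genes were higher (27.6% of all genes) and Tac1, Penk and Cck were lower (25.8%). A gene was called when edgeR's quasi-likelihood test gave a Benjamini-Hochberg adjusted p under 0.05 and the mean of 1 group was over 25% above that of the other, the fold threshold of the study. The groups did not overlap for 5 of 10 members in PBS animals (45.7% of all genes) and for 5 of 10 in LPS animals (45.3%).

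Vip, at chr10:5639218-5647614 on the plus strand (mm10), encodes a peptide that raises cyclic AMP through Vipr1 and Vipr2. Its normalised counts in Input PBS were 664, 585, 677 and 576 in animals 268, 272, 273 and 506, and in Positive PBS 2804, 3455, 3834 and 2684. Every positive library lay above every input library. The log2 difference was 2.35 (SE 0.14, adjusted p = 9.94e-11), and in LPS animals 2.04 (SE 0.13, adjusted p = 3.09e-10). Within an animal, positive over input lay between 4.23 and 5.91 after PBS and between 3.25 and 4.25 after LPS.

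Crh, at chr3:19693401-19695396 on the minus strand, encodes the releasing hormone of the stress axis and is also made by interneurons. In Input PBS it held 174, 219, 174 and 179 normalised counts in animals 268, 272, 273 and 506, and in Positive PBS 456, 747, 619 and 414. The fractions did not overlap in PBS or in LPS animals. Their log2 difference was 1.59 in PBS (SE 0.21, adjusted p = 7.34e-06) and 1.52 in LPS animals (SE 0.21, adjusted p = 5.39e-06).

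Npy, at chr6:49822729-49829505 on the plus strand, encodes a peptide that acts on Npy1r, Npy2r and Npy5r. In Input PBS it held 1100, 1344, 1390 and 1167 normalised counts in animals 268, 272, 273 and 506, and in Input LPS 1010, 1066, 995 and 975 in animals 266, 267, 270 and 507. All 9 positive libraries (1431 to 3798) lay above all 8 of input. It was higher in the positive fraction by 1.24 (log2, SE 0.16, adjusted p = 4.09e-06) in PBS and by 0.93 (SE 0.15, adjusted p = 3.55e-05) in LPS animals, with no overlap in either. Sst, at chr16:23889581-23890844 on the minus strand, encodes somatostatin, which inhibits release of other transmitters and hormones. Input PBS held 3252, 4754, 3800 and 3245 normalised counts of Sst and Input LPS 2745, 3197, 3374 and 2750, in the same order of animals. It was higher in the positive libraries by 0.83 (SE 0.17, adjusted p = 0.000709) in PBS animals, without overlap, and by 0.52 (SE 0.16, adjusted p = 0.0105) in LPS animals, where the ranges met. Within single animals Sst was 1.66 to 2.01 times higher in the positive fraction after PBS and 1.23 to 1.49 times after LPS.

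Tac1, Penk and Pdyn went the other way. Tac1 held 1020, 1528, 867 and 1047 normalised counts in Input PBS (animals 268, 272, 273 and 506) and 652, 1099, 657 and 554 in Positive PBS. Penk held 5892, 8170, 5664 and 5945 in Input PBS and 4421, 5209, 5327 and 5400 in Positive PBS, and Pdyn 220, 299, 197 and 302 against 145, 231, 197 and 164. Only Penk had no overlap, and animal 272 was highest in input for Tac1 and Penk. In PBS animals Tac1, the substance P precursor at chr6:7555071-7562973, was lower by 1.5-fold (log2 -0.59, SE 0.21, adjusted p = 0.027). Pdyn, the prodynorphin gene, was lower by 1.38-fold (log2 -0.46, SE 0.17, adjusted p = 0.0283). Penk, the proenkephalin gene at chr4:4133536-4138445, was lower by 1.26-fold (log2 -0.33, SE 0.13, adjusted p = 0.0433).

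Positive over input in the same animal lay between 0.64 and 0.94 for Penk after PBS and between 0.65 and 0.87 after LPS. For Tac1 it lay between 0.53 and 0.76 and between 0.42 and 0.78, and for Pdyn between 0.54 and 1.00 and between 0.69 and 0.91. With the animal as a block (a fixed term per animal), all 3 calls in PBS animals were kept. In the fit without the block, these 3 calls depended on single libraries. Penk, Pdyn and Tac1 each lost the call without the positive library of animal 268 (adjusted p = 0.122, 0.093 and 0.0676), that of animal 506 (0.0536, 0.0783 and 0.0918) or the input library of animal 272 (0.19, 0.0871 and 0.119). Penk and Tac1 also lost it without the positive library of animal 273 (0.0597 and 0.0733), Penk without that of animal 272 (0.0677) or the input of LPS animal 266 (0.051), and Pdyn without the input of animal 506 (0.104). All 3 calls were lost without animals 506 and 507 (0.0765 for Penk, 0.249 for Pdyn and 0.15 for Tac1), and Penk also without both libraries of animal 272 (0.225). In LPS animals Tac1 (log2 -0.73, adjusted p = 0.00368) and Penk (log2 -0.39, adjusted p = 0.0102) were lower, while Pdyn was at -0.28 (adjusted p = 0.123) and was called with all 18 libraries (log2 -0.39, adjusted p = 0.0339) or the deposited values (log2 -0.39, adjusted p = 0.0243). The Penk fold change in LPS animals fell under the fold threshold without the positive library of animal 266 (log2 -0.32, adjusted p = 0.0254).

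Cck, at chr9:121489824-121495689 on the minus strand, encodes cholecystokinin. It stood at -0.31 (log2, SE 0.15, adjusted p = 0.103) in PBS animals, where 4 of 13 alternatives other than leaving out 1 library called it lower, among them scaling on neuronal genes (log2 -0.38, adjusted p = 0.0232), and it was lower by 1.3-fold in LPS animals (log2 -0.38, SE 0.14, adjusted p = 0.0298). That call of Cck was lost without the positive library of animal 266, 267 or 507 (adjusted p = 0.0741, 0.0781 and 0.0679), the input of animal 267 or 270 (0.0519 and 0.107) or both animals 506 and 507 (0.0905), with only the compared libraries fitted (0.0796), and under scaling on neuronal genes (log2 -0.25, adjusted p = 0.0817), which also took the Penk call in LPS animals below the fold threshold (log2 -0.26). Avp was 1.28 higher on the log2 scale (SE 0.92, adjusted p = 0.267) and Oxt 0.23 (SE 0.90, adjusted p = 0.853) in PBS animals. Avp was called without the input library of animal 272 (log2 2.54, adjusted p = 0.0437) and stood at -0.05 without the positive library of that animal. With the animal as a block (edgeR, a fixed term per animal), Avp was called higher in the positive fraction of both PBS animals (log2 1.15, adjusted p = 0.000116) and LPS animals (log2 0.88, adjusted p = 0.000611). Oxt was called in neither (0.08 and -0.13).

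**Figure D2:**
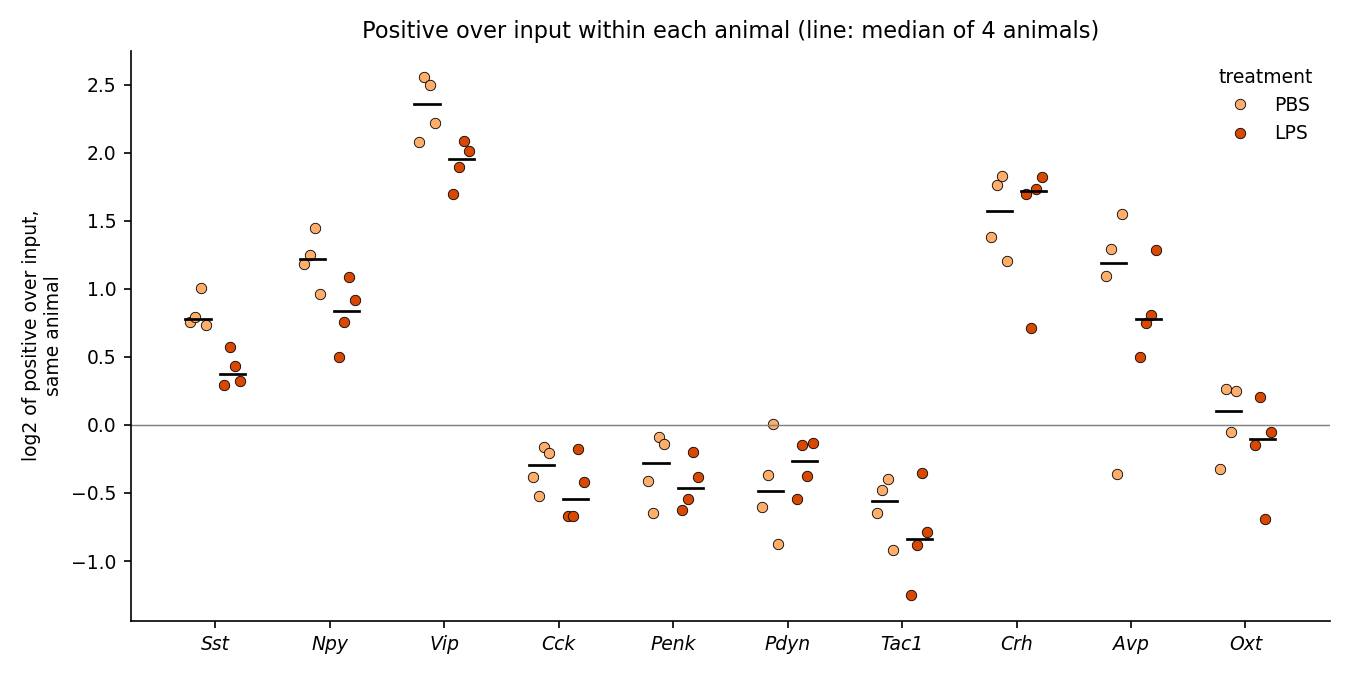
Log2 of positive over input within each of the 8 animals that had both libraries, with a pseudocount of 1, in PBS and LPS animals, and a line at the median of 4 animals. Every animal lay above 0 for Vip, Crh, Npy and Sst, 1 PBS animal (273) lay below 0 for Avp, and Oxt lay on both sides of 0. Every animal lay below 0 for Penk, Tac1 and Cck, and all but animal 273 did for Pdyn.

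Markers of neuron types moved with this division. Of 17 tested interneuron markers 12 were higher and 1 was lower in the positive than in the input libraries of PBS animals, at a median log2 difference of 0.68. Adarb2, an RNA-editing family gene that marks Vip and related interneurons, was higher by 1.00 on the log2 scale (adjusted p = 1.59e-05). Of 17 tested striatal markers 12 were lower and 0 were higher, with a median of -0.63. Drd1, the dopamine receptor gene of striatal neurons that also make Tac1 and Pdyn, stood at -1.30 (adjusted p = 1.08e-07). Summed interneuron markers lay between 44890 and 53552 in Input PBS and between 69326 and 85945 in Positive PBS, and summed striatal markers between 49173 and 58312 and between 33651 and 36320. Excitatory markers were higher for 1 and lower for 5 of 12 (median -0.10). Of the 18 interneuron markers listed 8 are also in the study's neuron list. The part of these cell types in the members' division was not tested.

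**Figure D3:**
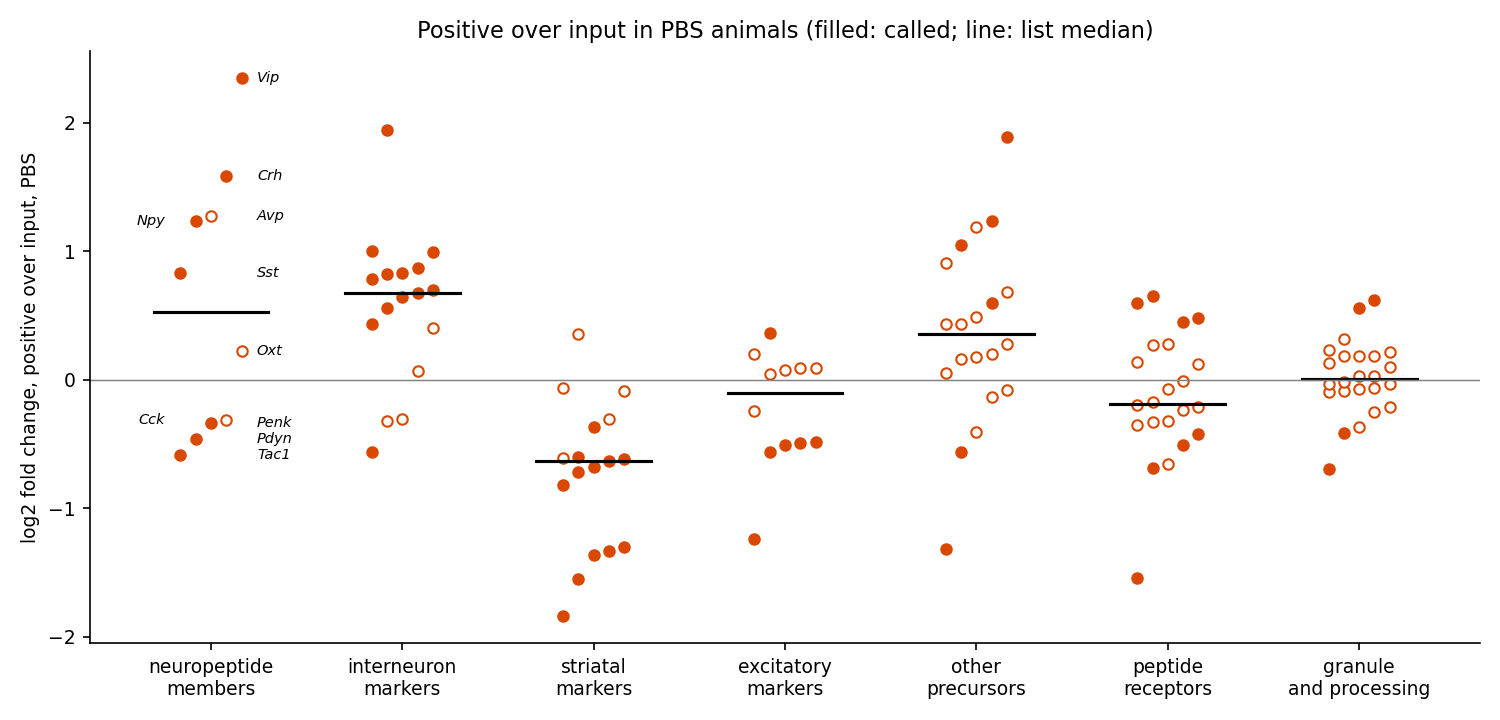
Log2 fold change of positive over input in PBS animals for each tested gene of 7 lists, with filled points for called genes and a line at each list's median. Interneuron markers had a median of 0.68 and striatal markers of -0.63, and the members lay from -0.59 (Tac1) to 2.35 (Vip).

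The second question was the LPS effect. In the positive fraction 5 of 10 members fell, against 14.9% of all genes tested that were lower and 33.8% called in either direction. These were Sst, Npy, Crh, Cck and Vip, by 1.55-, 1.52-, 1.51-, 1.44- and 1.35-fold. The log2 fold changes of Penk (-0.14, SE 0.12), Pdyn (-0.17, SE 0.16), Tac1 (-0.38, SE 0.20), Avp (-1.10, SE 0.85) and Oxt (-1.65, SE 0.89) did not pass. In libraries made from many cells, fewer cells of a type and less transcript per cell cannot be told apart. The source of the neuronal transcripts in the positive fraction was not tested.

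Sst held 5496, 8259, 7642 and 5394 normalised counts in Positive PBS (animals 268, 272, 273 and 506) and 3373, 4767, 4552, 5549 and 3436 in Positive LPS (animals 266, 267, 270, 271 and 507). The groups overlapped only through animal 271. The log2 fold change was -0.63 (SE 0.16, adjusted p = 0.00474). Npy held 2496, 3204, 3798 and 2276 in Positive PBS and 1431, 1803, 2115, 2464 and 1841 in Positive LPS, again with animal 271 inside the PBS range. Its log2 fold change was -0.61 (SE 0.15, adjusted p = 0.00277).

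Vip held 1940, 2015, 2340, 3016 and 2481 normalised counts in Positive LPS, in the same order of animals, and fell by 0.44 on the log2 scale (SE 0.12, adjusted p = 0.00815), from 3194 ± 545 (SD, n = 4) to 2358 ± 431 (n = 5). Only animal 271 lay inside the PBS range. Cck held 3024, 3258, 3956 and 3754 in Positive PBS and 1823, 1986, 3282, 2883 and 2151 in Positive LPS, a fall of 0.53 (SE 0.14, adjusted p = 0.00722), with animal 270 inside the PBS range. Crh held 309, 311, 415, 428 and 386 in Positive LPS, a fall of 0.60 (SE 0.19, adjusted p = 0.0196) from 559 ± 153 to 370 ± 56.9. Animals 270 and 271 reached just past the lowest PBS library. The group ranges of all 10 members overlapped, while 30.1% of all genes tested did not overlap. The Crh call was lost without the positive library of animal 272 (log2 -0.42, adjusted p = 0.105), without that of animal 273 (log2 -0.55, adjusted p = 0.0554) and with sex as a term (log2 -0.45, adjusted p = 0.0524). The calls of Sst, Npy, Vip and Cck were kept with sex as a term. Of the animals, 2 of 4 PBS and 1 of 5 LPS were male. In Positive PBS the male animals 272 and 273 lay above the female animals 268 and 506 for Sst, Npy, Vip and Crh, but not for Cck. The Cck call was lost without animals 506 and 507 (log2 -0.45, adjusted p = 0.0713).

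Neuronal genes as a whole were lower in the same libraries. Of the 95 listed neuronal genes 40 fell in the positive fraction and 0 rose, with a median log2 fold change of -0.29 against 0.01 over all genes tested. Their sum lay between 535431 and 672472 in Positive LPS, all below Positive PBS. When libraries were scaled on these 95 genes, which include 8 of the 18 listed interneuron markers, 0 of 10 members were called in edgeR. An unadjusted p under 0.05 was reached by 2, and the share of all genes at that p was not counted. Sst was then at -0.32 (adjusted p = 0.0713), Npy at -0.31 (0.0438, under the fold threshold), Crh at -0.29 (0.205), Cck at -0.24 (0.109) and Vip at -0.13 (0.281). Under this scaling the median of all genes was 0.32 for the positive fraction and 0.10 for input, and the calls over all genes in the positive fraction moved from 2809 higher and 2199 lower to 6257 higher and 608 lower. The sign turned for Penk (0.16) and Pdyn (0.15), neither of them called.

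**Figure D4:**
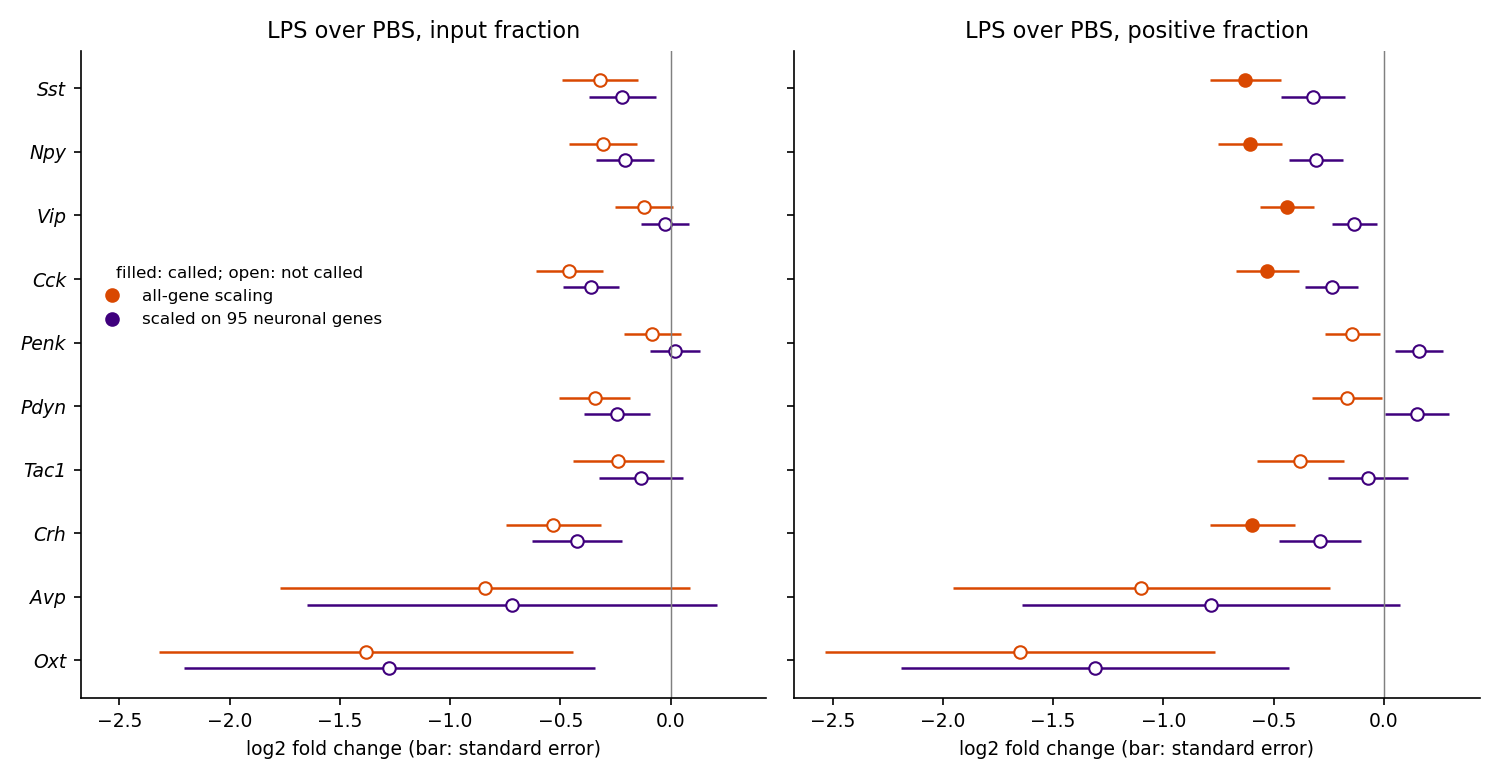
Log2 fold change of LPS over PBS with its standard error for each member in the input (left) and positive fraction (right), under median-of-ratios scaling over all genes and under scaling on 95 neuronal genes. Filled points mark the 5 members called in the positive fraction under all-gene scaling.

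In input, LPS gave 0 called members of 10, against 12.4% of all genes tested, by edgeR, and 1 (Cck) by both DESeq2 and limma-voom. At an unadjusted p under 0.05 edgeR counted 3, Cck, Crh and Pdyn, and the share of all genes at that p was not counted. All 10 log2 fold changes were negative, where the median of all genes tested was 0.00. Under scaling on neuronal genes 9 were negative, Penk being at 0.02, and the median of all genes was 0.10. Without the input library of animal 267, Crh was called (log2 -0.77, adjusted p = 0.0179). Cck had the lowest adjusted p, with 3933, 4686, 4422 and 4330 normalised counts in Input PBS and 2894, 3153, 3718 and 2871 in Input LPS, without overlap. Its change was -0.46 (log2, SE 0.15, adjusted p = 0.0532). In limma-voom it was called both without a block (adjusted p = 0.0425) and with the animal as a block (log2 -0.43, adjusted p = 0.0405). In edgeR it was called without the positive library of animal 266, 267, 270 or 271 or the input of animal 270 (adjusted p from 0.0205 to 0.0473). Npy did not overlap either (1100 to 1390 in PBS and 975 to 1066 in LPS), with a change of -0.31 (log2, SE 0.16, adjusted p = 0.212). Ranges did not overlap for 2 of 10 members and for 24.1% of all genes.

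Crh was at -0.53 (SE 0.21, adjusted p = 0.11), Pdyn at -0.35 (SE 0.16, adjusted p = 0.175), Sst at -0.32 (SE 0.17, adjusted p = 0.239) and Tac1 at -0.24 (SE 0.20, adjusted p = 0.489). Vip at -0.12 (SE 0.13) and Penk at -0.08 (SE 0.13) were nearest to 0. The 95 neuronal genes had a median of -0.08 in input, with 6 lower and 0 higher. Of the 14803 genes tested 779 were called lower and 1060 higher.

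Whether the LPS effect differed between the fractions was tested as an interaction, and 0 of 10 members were called in edgeR, with 0 at an unadjusted p under 0.05 and 0 called by DESeq2 and limma-voom, against 6.88% of all genes. It was -0.31 for Sst (SE 0.24), -0.30 for Npy (SE 0.21) and -0.32 for Vip (SE 0.18) on the log2 scale. With the animal as a block, the interaction was called for Sst (log2 -0.42, adjusted p = 0.0105) and Vip (log2 -0.41, adjusted p = 0.0399). Their LPS effect was more negative in the positive fraction than in input.

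Promoter sequences are shown for Sst, Npy, Vip and Cck, the genes lower after LPS in the positive fraction that had an entry, because cyclic AMP response elements are a known control of peptide genes. The 100 bases before each RefSeq start (GRCm38.p6) are given 5′ to 3′ on the gene's strand, with the letters TGACGTCA (Sst) or TGACG on either strand (others) in capitals. They lie at chr16:23890845-23890944 (minus), chr6:49822610-49822709 (plus), chr10:5639118-5639217 (plus) and chr9:121495695-121495794 (minus).
Sst: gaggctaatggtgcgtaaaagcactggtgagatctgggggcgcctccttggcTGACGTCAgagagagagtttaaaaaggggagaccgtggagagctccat
Npy: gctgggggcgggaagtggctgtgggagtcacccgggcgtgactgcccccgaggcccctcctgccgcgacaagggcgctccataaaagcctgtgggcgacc
Vip: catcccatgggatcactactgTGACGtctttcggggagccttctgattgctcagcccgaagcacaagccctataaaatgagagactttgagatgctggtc
Cck: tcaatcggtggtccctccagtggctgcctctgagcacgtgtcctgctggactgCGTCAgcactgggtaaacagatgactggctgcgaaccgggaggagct

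Entries matched 8 of 10 members, all but Crh and Penk. The palindrome TGACGTCA was found in Sst only, 48 bases before the start, and in 1.55% of 32851 promoters of 250 bases. The letters TGACG on either strand, which the palindrome also holds, were found in Sst, Vip, Cck and Tac1 and in 17.8% of promoters. They stood 79 bases before the start in Vip, 47 in Cck, and 197 and 43 in Tac1. The palindromic E-box CACGTG was found in Avp, Tac1 and Cck and in 6.02% of promoters. A match describes letters and was not tested for binding.

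Avp and Oxt, neighbours at chr2:130580677-130582541 and chr2:130576173-130576988 with opposite strands, differed between animals more than between groups. Avp held 288, 1117, 38.9 and 177 normalised counts in Input PBS (animals 268, 272, 273 and 506) and 67.3, 405, 185 and 246 in Input LPS (animals 266, 267, 270 and 507). In Positive PBS it held 615, 2736, 30.04 and 521, and in Positive LPS 95.6, 681, 325, 583 and 600 (599.5, animal 507). Animal 272 was highest and animals 273 and 266 lowest in both fractions. Oxt lay between 52.0 and 566 in Input PBS and between 9.62 and 161 in Input LPS, with animal 272 highest and animal 266 lowest. The coefficient of variation in Input PBS was 120% for Avp and 124% for Oxt, against 7.18% for Cck and 8.34% for Vip.

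The LPS effect on Avp in input was -0.84 (log2, SE 0.93, adjusted p = 0.6) and on Oxt -1.38 (SE 0.94, adjusted p = 0.361). Without both libraries of animal 272, an alternative added after the values were seen, the Avp effect was 0.42 in input and 0.23 in the positive fraction, both positive. Of the transcribed sequence, 86 stretches of 42 bases are shared by both genes (of 536 in Avp and 496 in Oxt), so reads there could have been divided between them by the authors' counting.

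Pmch and Hcrt, other hypothalamic peptide genes, were high or low in the same animals as Avp. Pmch, the melanin-concentrating hormone precursor, was the gene most like Avp among 12608 genes (Pearson r = 0.917 of deviations from group means over 17 libraries). In input of PBS animals Pmch held 516, 1448, 18.04 and 89.5 normalised counts in animals 268, 272, 273 and 506, and in Input LPS 26.2, 474, 299 and 527 in animals 266, 267, 270 and 507. Hcrt, the orexin precursor, lay at 7.60 and 5.25 in the input of animals 273 and 266 and at 325 in that of animal 272, and was chosen after its values were seen. Other genes of that list, also chosen after their values were seen, did not all share the pattern. Pomc was highest in animal 272 (203 in input) but held 29.7 in the input of animal 266 and 38.9 in that of animal 273, against 31.2 to 49.5 in the others. Peg3, an imprinted gene, was lowest in the input of animal 272 (4254) and highest in the positive library of animal 266 (22106). Pituitary markers summed to between 34.3 and 179.9 normalised counts in any library, and the growth hormone gene Gh was at 0 in all. Of 24 hypothalamic markers 9 were tested, and the amount of hypothalamus in each half-brain was not measured.

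**Figure D5:**
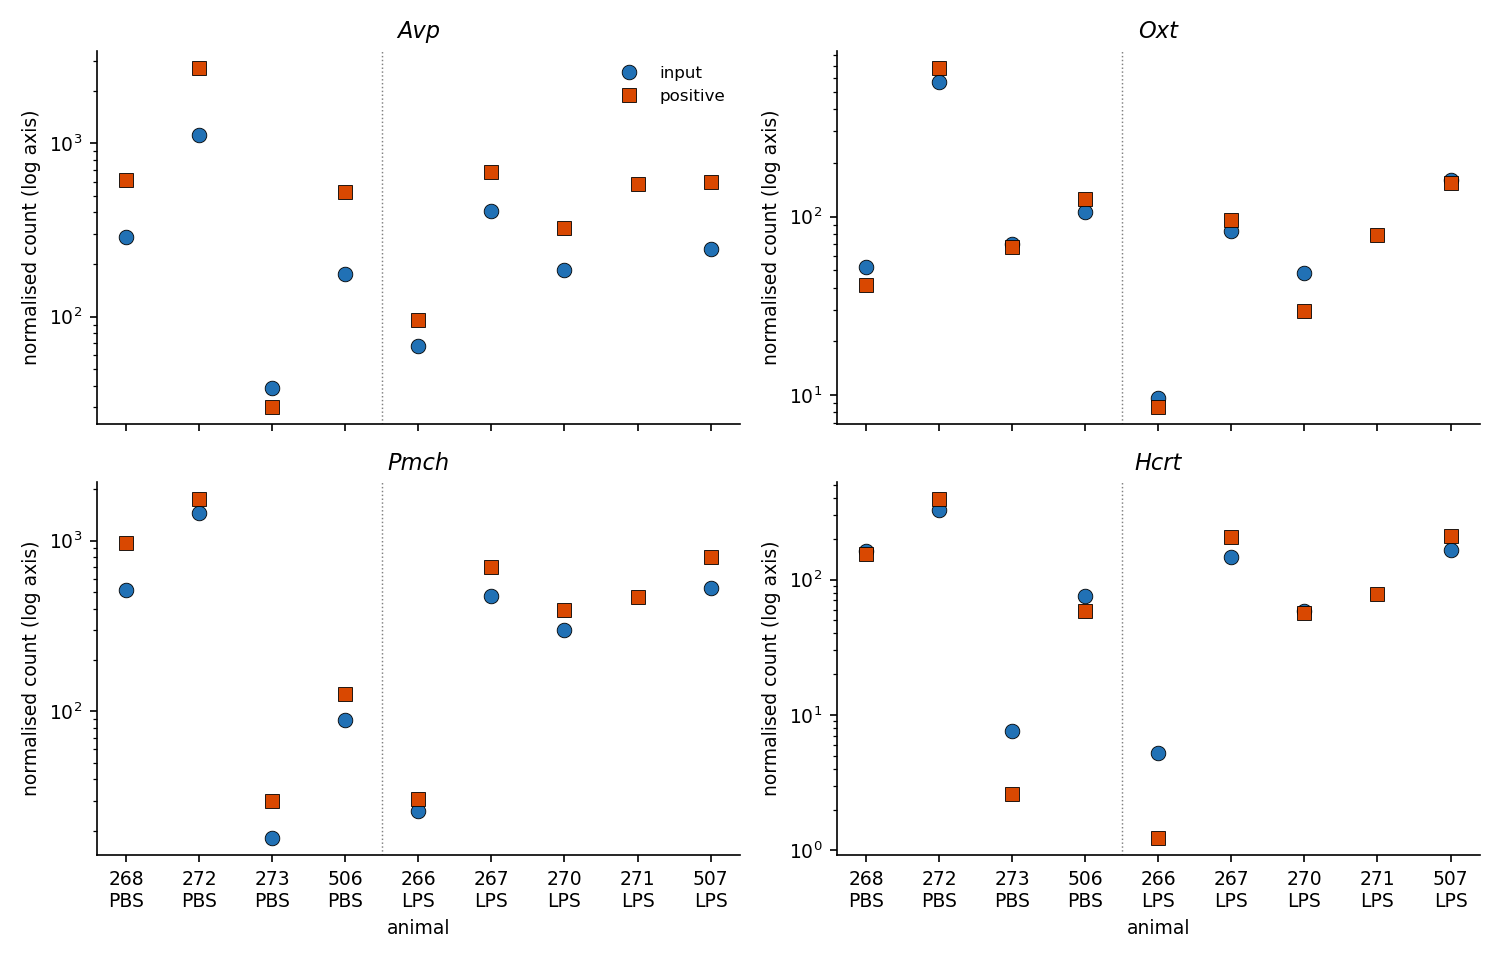
Normalised counts (log axis) of Avp, Oxt, Pmch and Hcrt in the input and positive library of each animal, PBS animals to the left of the dotted line. Animal 272 was highest for all 4 genes, and animals 273 and 266 lay lowest for Avp, Pmch and Hcrt in both fractions.

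Among 46 other neuropeptide precursors 20 were tested. In the positive fraction 7 were called lower after LPS, namely Apln, Pomc, Cartpt, Vgf, Adcyap1, Pnoc and Grp, and Adm and Nucb2 were called higher. Apln, the apelin precursor, fell by 2.23 on the log2 scale (SE 0.20, adjusted p = 1.16e-07) from 952 to 202 mean normalised counts, and in input by 1.78 (adjusted p = 1.02e-05). Vgf, a granule protein that neuronal activity raises, fell by 0.84 (adjusted p = 0.000282), and in input by 0.66 (adjusted p = 0.0104). Grp, the gastrin-releasing peptide gene, fell by 0.60 in input (adjusted p = 0.0416, but 0.0606 with the animal as a block). In input, the Grp call was lost in 6 of 13 other alternatives and in 6 of 17 that left out 1 library, namely the input of animal 267, 272, 273, 506 or 507 or the positive library of animal 507.

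Several of these precursor calls in the positive fraction rested on animal 272. Without both of its libraries, Cartpt moved from -0.94 to -0.45 (adjusted p from 0.0355 to 0.103), Adcyap1 from -0.63 to -0.38 (0.0253 to 0.0837) and Pnoc from -0.59 to -0.43 (0.0271 to 0.0698). Leaving out its positive library alone ended these calls too (0.28, 0.161 and 0.125) and that of Adm (0.0717). The positive library of animal 266 ended the calls of Cartpt, Adcyap1 and Pnoc when left out, that of 267 those of Cartpt and Pnoc, that of 271 those of Cartpt and Adcyap1, and that of 273 that of Pnoc (adjusted p from 0.0573 to 0.076). Grp in the positive fraction was lost without the positive library of animal 268 (0.0522) or 506 (0.0625) and without animals 506 and 507 (0.125). With sex as a term in edgeR, Pnoc was at an adjusted p of 0.0634, Cartpt at 0.103 and Pomc at 0.0737. Cartpt was also not called by limma-voom (0.0703) or with the deposited values (0.0693), nor was Pomc (0.0733 and 0.0737). Pomc fell by 2.07 (adjusted p = 0.0145), but was at -0.63 (adjusted p = 0.0979) without both libraries of animal 272 and at an adjusted p of 0.354 without its positive library alone, whose Positive PBS library held 316 against 33.1 to 51.2 in the others. Nucb2, the nesfatin precursor, rose by 0.90 (adjusted p = 1.86e-05). Under neuronal scaling 3 were lower and 2 higher, and 1 of the precursors, Pnoc, is itself among the 95 genes used for that scaling. In PBS animals the positive fraction was higher for 4 of these 20 and lower for 2. Among them was Pnoc, the nociceptin precursor, at a log2 difference of 1.24 (adjusted p = 0.000156).

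The granule and processing genes were all tested (24 of 24). In input 1 was called, Furin, a ubiquitous convertase, which was higher after LPS (log2 0.40, adjusted p = 0.0329). That call was lost without both libraries of animal 272 (log2 0.33, adjusted p = 0.119), without animals 506 and 507 (0.0522), and without the input library of animal 266, 270, 272 or 273 (0.072, 0.115, 0.108 and 0.079). In the positive fraction 9 fell and 2 rose. Pcsk1, a convertase of neuropeptide precursors, fell by 0.65 (adjusted p = 0.000775), while Pcsk2 was at 0.08 (adjusted p = 0.562) and Cpe, the carboxypeptidase that trims cut peptides, at -0.25 (adjusted p = 0.0399, under the fold threshold). Cpd, a carboxypeptidase of the trans-Golgi, rose by 2.37 (adjusted p = 2.4e-09) from 2324 to 12031 mean normalised counts. Under neuronal scaling the counts were 1 lower and 4 higher, and 4 of the 24 genes are themselves among the 95 used for that scaling.

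Of 29 receptor genes 22 were tested, and 14 fell after LPS in the positive fraction with a median of -0.52. In input 6 were called lower and 1 higher. The somatostatin receptors Sstr2 (-0.86 in input, -0.82 in the positive fraction) and Sstr3 (-0.62 and -0.75) fell in both, as did the Crh receptor Crhr1 (-0.75 and -0.88). These 3 were called in both fractions under all 30 alternatives. The cholecystokinin receptor Cckbr (-0.71 in input, -1.03 in the positive fraction), the Crh-binding protein gene Crhbp (-0.51 and -0.77) and the delta opioid receptor Oprd1 (-0.46 and -0.44) were called lower in both as well. Their input calls were less stable. Of 13 alternatives other than leaving out 1 library, 5 ended the call of Cckbr in input (adjusted p from 0.056 to 0.0955), 4 that of Oprd1 (0.0772 to 0.146) and 4 that of Crhbp (0.0514 in the fit with the animal as a block to 0.125). Leaving out the input library of animal 267, 270 or 506 ended all 3 of these calls, that of animal 273 those of Cckbr and Crhbp, that of 268 that of Oprd1, and that of 272 or 507 that of Crhbp. Oprd1 in the positive fraction was lost in 4 of these 13 alternatives and without the positive library of animal 506 (0.058). Oprl1, the nociceptin receptor gene, was called higher in input (0.49, adjusted p = 0.0173), but not without animals 506 and 507 (0.103) or the input library of animal 268, 270 or 506 (0.0507, 0.0757 and 0.0575). Vipr1 fell by 1.15 in the positive fraction (adjusted p = 6.23e-07), where it held 526 to 672 normalised counts in PBS and 235 to 325 in LPS libraries. Of the Npy receptors, Npy2r fell (-0.59, adjusted p = 0.00392) and Npy5r was at -0.50 (adjusted p = 0.0987). Npy1r was called lower (-0.38, adjusted p = 0.037) but not in 9 of 13 alternatives (0.0519 by limma-voom and 0.0561 by limma-voom with the animal as a block). Nor was Npy1r called without the positive library of animal 266, 270, 271, 272, 273 or 506 (0.0508 to 0.113). Under neuronal scaling 7 receptors were lower and 2 higher.

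Among 12 peptidases that degrade peptides, LPS raised 4 and lowered 2 in the positive fraction, against 2809 and 2199 of the 14803 genes tested. Anpep, which encodes aminopeptidase N, rose by 1.81 (adjusted p = 3.55e-05), Prep, the prolyl endopeptidase gene, by 0.78 (adjusted p = 7.85e-07) and Nln, the neurolysin gene, by 0.62 (adjusted p = 0.000144). In input Ace (0.52, adjusted p = 0.00158) and Nln (0.42, adjusted p = 0.0143) were called higher, Nln not without the input library of animal 270 (0.0507) or 273 (0.0561). Under neuronal scaling 7 were higher and 2 lower.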

How the data were processed

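RNAseq of 18 libraries from 9 animals was analysed. The authors made stranded libraries (NEBNext Ultra II Directional), aligned reads to mm10 in Strand NGS with RefSeq gene models and normalised with DESeq. The deposited matrix held estimated counts per gene (81.1% of nonzero values not whole, tolerance 0.001) and log2 values of DESeq-normalised counts that the authors baselined to a median. Columns not mapped to a sample numbered 0. Counts were rounded, divided by median-of-ratios size factors and fitted with edgeR 4.0.16 (quasi-likelihood, 1 mean per group, 13 residual degrees of freedom, R 4.3.3) over genes with over 20 normalised counts in every library of at least 1 group. Adjusted p-values are Benjamini-Hochberg over all genes tested. Calls needed an adjusted p under 0.05 and a fold over 1.25. The study used analysis of variance on fraction and treatment, with the same thresholds.

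Members and lists were chosen with earlier results of these data known, and members are not replicates. Genes named beside the members are receptors and processing enzymes of the members, list genes called in an LPS comparison, and the 3 genes with the highest correlation to each member, of which 1 is not reported here. Fractions of an animal share its homogenate, and the correlations of their deviations from group means ranged from 0.16 to 0.519 over 8 pairs, so the animal number pairs the samples. Fits with the animal as a block used limma-voom 3.58.1 with a random block for the LPS effects. For positive over input and the interaction they used edgeR with a fixed term per animal, over animals with both libraries. Alternatives were DESeq2 1.42.0, limma-voom, other scalings, filters and sample sets. The functions were tested on simulated data.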

Additional observations from a re-analysis of the deposited data

Results flagged for a closer look

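In 40 gene-by-group sets of 4 or 5 libraries, 4 had a library far from the others by Dixon's test, which happens by chance in about 1 of 20 sets. All were the highest library of animal 272, a PBS animal. They were Penk in Input PBS (8170 normalised counts), Crh in Input PBS (219), Oxt in Input PBS (566) and Oxt in Positive PBS (682).

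The LPS effect differed between the positive fraction and input for 6 of the genes named beside the members (edgeR interaction, log2 positive minus input). The difference was 2.25 for Cpd (SE 0.21), -0.86 for Vipr1 (SE 0.17), 0.66 for Prep (SE 0.12), 1.72 for Anpep (SE 0.38), -0.52 for Ace (SE 0.14) and -0.75 for Adarb2 (SE 0.19). The Ace difference was not called under neuronal scaling (-0.31, adjusted p = 0.26), and the Vipr1 difference had an adjusted p of 0.0525 there. Of 12 alternatives other than leaving out 1 library, 5 ended the call for Adarb2 (adjusted p from 0.0521 to 0.118) and 5 that for Ace. The Adarb2 call was also lost without the positive library of animal 268 or 272 or the input library of animal 266, 272, 273 or 507 (0.0506 to 0.0617), and the Ace call without the positive library of animal 268 or 272 or the input library of animal 270, 272, 273, 506 or 507 (0.0505 to 0.0746).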

How the results depend on the processing

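Members called for LPS in input numbered 0, and 1 (Cck, lower) with DESeq2, limma-voom, TMM scaling, all 18 libraries, only the libraries compared, the replicate block (animal) and the deposited log2 values, and 0 to 1 when 1 library was left out. Members called for LPS in the positive fraction numbered 5, 0 when scaled on the neuron list and 4 to 5 without 1 library. Positive over input in PBS animals gave 7, 4 when animals 506 and 507 were left out, 8 with neuron-list scaling, all 18 libraries, the block or the deposited values, and 4 to 7 without 1 library. In LPS animals it gave 7, 5 with neuron-list scaling, 8 with all 18 libraries, the block or the deposited values, and 5 to 7 without 1 library. The difference between fractions gave 0, 2 (Sst and Vip, lower) with the replicate block, and 0 to 0 without 1 library. Beside Sst and Vip there, the calls of Cck for LPS in input and of Avp in both fraction comparisons, and of no other member, differed between the main fit and the replicate block. For Cck, limma-voom without the block gave the same call. No called member changed sign under any alternative run. With all 18 libraries or the deposited log2 values, the median of all genes between fractions in PBS animals moved to -0.12 and -0.13. Of 639 member values under alternatives other than leaving out 1 library, 586 kept both their call status and their sign. A call was lost by 18 and gained by 17, and 18 that were not called changed sign. The cause of the changes was not tested. Oxt could not be tested between fractions in LPS animals when only the compared libraries were used.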

Other observations

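Genes most like each member were named by Pearson correlation of deviations from group means (log2 of normalised count plus 1, 17 libraries, 12608 genes), as a description that shares libraries and depth. Sst was most like Prune (r = 0.924) and Ccne1, and Npy most like Ncrna00086 (0.936), A030009H04Rik and Mrpl22. Vip was most like Tox (0.892), Irgq and Sec23a, and Cck most like BC022687 (0.957), Keap1 and Tuba4a. Penk was most like Ccdc174 (0.936), Mrps33 and Ccdc104, Pdyn most like Nsdhl (0.851), Pcdh17 and Pcdh8, and Tac1 most like Trappc2 (0.859), Nnat and Cmbl. Crh was most like Ly6h (0.802), Mrpl46 and Npas1, Avp most like Pmch (0.917), Gnal and Cd22, and Oxt most like Ngfr (0.882), Rbms3 and Vat1. Between members the correlation was 0.803 for Sst and Npy, 0.802 for Npy and Vip, 0.744 for Cck and Penk, and 0.717 for Avp and Oxt.

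Peg3 held 2521 to 22106 normalised counts in Positive LPS and 7231 to 11756 in Input LPS, and was chosen after its values were seen.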
